A study of Mus musculus with 2 samples.

Results

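The genes described here are 51 axon guidance genes of the mouse, in 4 signalling systems: 14 semaphorins with 8 plexins and neuropilins, 6 ephrins with 10 Eph receptors, 5 Slit and netrin ligands with 5 Robo, Unc5 and Dcc receptors, and 3 FLRT genes. All 51 were found by symbol in the RefSeq gene table. A peak of open chromatin was counted for one of them when it overlapped the gene, or when the gene was the nearest protein-coding gene within 50 kb. That gave 515 of 84591 nuclear peaks. Of these, 452 passed the filter on low signal, and they belonged to 50 of the 51 genes. Dcc, the netrin receptor, had 0 peaks.

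Chromatin was profiled by ATAC-seq, in which a transposase inserts adapters into accessible DNA, from 50000 sorted basal cells of skin epidermis per library. The sort took cells with high α6 integrin, without CD34 and Lrig1, and with the YFP, GFP and RFP reporters that the labels list for the K14 tracing, K14 being the keratin 14 of basal cells. There were 2 libraries: 1 control library with the genotype given as WT, and 1 ablation library with the genotype given as ablation of the basal lineage. The labels do not say how cells were ablated, which alleles carry the reporters, how long after ablation the skin was taken, how old the mice were or how many gave each library. The control column of the table carries the number 2 and the other column says Exp, so both were matched to the samples by their titles. The comparison addresses the chromatin changes that go with clonal expansion and fluidity of the epidermis. Each group is a single library, which leaves the spread between animals unmeasured; no test was made, and all intervals are 95% intervals of counting error. Different shares of a cell type and different accessibility per cell cannot be told apart in such bulk libraries.

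Semaphorins are secreted or membrane-bound ligands that act through plexins. The secreted class 3 members mostly need a neuropilin as co-receptor. Ephrins are membrane-bound ligands of the Eph receptor tyrosine kinases, and signals run both into the receptor cell and into the ephrin cell. Slits bind Robo receptors, netrins bind Dcc and Unc5 receptors, and FLRT proteins bind Unc5 receptors and latrophilins. These systems were named for the steering of axons, and they also control cell repulsion, sorting and migration in epithelia; ephrins and Eph receptors are known from keratinocytes.

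Reads in nuclear peaks came to 17056996 in control and 12463908 in ablation, of which the 515 guidance peaks held 93388 and 68989. A guidance peak had a median of 73 reads in control and 61 in ablation. Mitochondrial peaks held 7.31% of control reads and 31.2% of ablation reads, and their part in the results was not tested. Of the 7 marker genes of basal epidermis all had tested peaks, with log2 ratios of ablation to control from -0.35 for Col17a1 to 0.21 for Krt5. Among the other cell types, the summed signal of endothelial markers was 3799 and 3878 normalized reads with 5 of 6 tested and Cdh5 without a tested peak. That of fibroblast markers was 575 and 592, with Col1a2, Col3a1 and Lum without one. Melanocyte markers summed to 3321 and 3001 (4 of 6 tested, Tyr and Kit without a tested peak), Langerhans and myeloid markers to 1380.3 and 1405 (6 of 6), T cell markers to 1653 and 1643 (2 of 5, Cd3g, Cd3d and Trac without one), and Schwann and nerve markers to 2809 and 2677 (5 of 5). Pecam1 carried most of the endothelial sum and Epcam most of the Langerhans and myeloid sum, while the median log2 ratios of these lists were 0.48 and 0.22. Single endothelial genes ranged from Tek at -0.63 to Tie1 at 1.23. Csf1r was highest of the Langerhans and myeloid markers, at 2.097-fold (1.15 to 3.93), from 1 peak of 19 and 31 reads. H2-Ab1 was at 1.46-fold (1.23 to 1.74). Cd207 at 1.26-fold, Cd74 at 1.08-fold and Ptprc at 0.936-fold had intervals that include 1. Epcam was at 0.919-fold (0.848 to 0.995), an interval that holds the median log2 ratio of all genes with a tested peak (-0.07). The part of these other cell types in the values below was not tested.

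As a group the guidance genes were not shifted against the rest of the genome. The median log2 ratio of summed signal over the 50 genes was -0.07, the same as over all 16272 genes with a tested peak (-0.07). Of the 50 genes 23 lay above that median of all genes. With each library divided by its table total, mitochondria included, the median over all genes was -0.41, so single genes are read here against that median. The counting interval lay wholly above the median of all genes for 17 of the 50 guidance genes, where 20.5% of all genes did. It lay wholly below for 14 of the 50, where 21.1% of all genes did. Both counts are above these shares. The guidance genes also had more summed signal, with a median of 975 normalized reads in control against 461 for all genes. Counting intervals are narrower with more reads, so the shares are not compared at like signal. One gene, Sema6d, was at least 2-fold higher in summed signal, as were 1.19% of all genes. Family medians ran from -0.27 to 0.10, while single genes ran from -0.40 to 1.09.

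**Figure D1:**
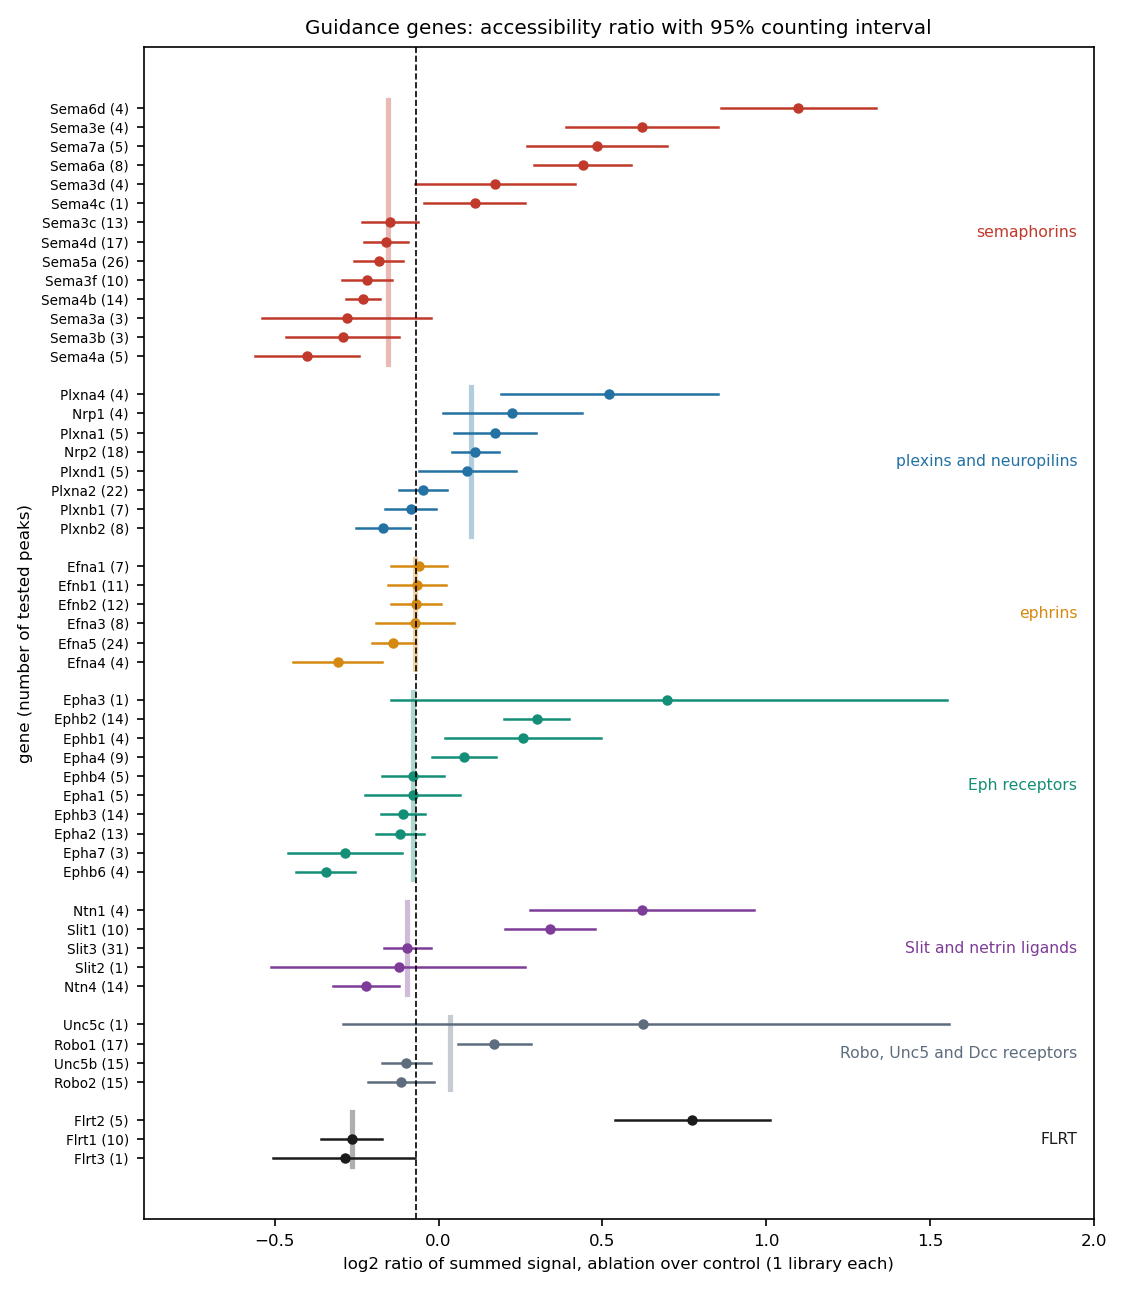
Each point is 1 gene; the horizontal axis gives summed signal in ablation over control as a log2 ratio (without pseudocount), the bar is the 95% counting interval, and the number after the name counts tested peaks. Pale vertical lines are family medians and the dashed line is the median of all genes at -0.07; Sema6d stands furthest to the right and Sema4a furthest to the left.

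Among semaphorins, membrane-bound Sema6d, Sema7a and Sema6a and secreted Sema3e were higher in the ablation library, and Sema4a, Sema3b, Sema4b and Sema3f were lower. The median over the 14 genes was -0.15, with 6 above and 8 below the median of all genes. The counting intervals of 5 semaphorins lay wholly above that median and those of 6 wholly below it.

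Sema6d, a transmembrane ligand of plexin A1, had a summed signal of 167 normalized reads in control and 356 in ablation, from 236 and 393 reads. That is 2.14-fold (1.82 to 2.53), the highest value of the 50 genes. All 4 tested peaks had ratios above 1, and 3 of them passed 2-fold. The strongest lay within the gene (chromosome 2, 124609796 to 124610776) and had 76.9 normalized reads in control and 194 in ablation, 2.52-fold (1.99 to 3.21). The next, at 124509321 to 124509910, had 21.9 and 53.5, and that at 124413327 to 124413994 had 20.5 and 45.4. Another 6 peaks of the gene were too weak for the filter, and all 10 of its peaks were higher in ablation. None of them lay within 1 kb of a listed start, and all sat inside the gene, between its 2 listed starts.

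Sema3e is a secreted ligand that binds plexin D1 directly. It stood at 200.4 normalized reads in control and 308 in ablation, 1.54-fold (1.31 to 1.81). Most of this came from a peak about 32 kb upstream of its start, which had 141 and 228 normalized reads. Sema7a, which is anchored to the membrane by a lipid and binds integrin β1, had 248 and 346 normalized reads, 1.40-fold (1.21 to 1.62). Its peaks differed in direction: the peak at the start had 121 in control and 107 in ablation, while a peak beyond the gene end on chromosome 9 at 57973565 to 57974554 had 42.3 and 103. When the strongest peak alone stood for the gene, Sema7a was therefore at -0.17. Sema6a, a membrane-bound ligand of A-type plexins, had 515 and 699 normalized reads, 1.36-fold (1.23 to 1.504), with all 8 tested peaks above 1 and none 2-fold. Its other 2 peaks, too weak for the filter, were lower in ablation, with 21 and 13 reads and with 4 and 1 reads, the latter past 2-fold.

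The semaphorins that were lower in ablation ranged widely in signal. Sema4b had the most summed signal of the 50 genes, 5367 normalized reads in control and 4575 in ablation, 0.852-fold (0.823 to 0.883), and 3 of its 14 peaks were above 1. Sema4a was lowest of all members, with 627 and 475 normalized reads, 0.758-fold (0.679 to 0.845). Its start-site peak carried most of that, with 401 in control and 268 in ablation. Sema3f, a secreted ligand of neuropilin 2, had 2449 and 2105 normalized reads, 0.859-fold (0.815 to 0.906), with 1 of 10 peaks above 1 and 1 peak at least 2-fold lower. Sema3b stood at 504 and 412, and Sema3a, the ligand of neuropilin 1, at 228 and 188 with an interval (0.688 to 0.984) that holds the median of all genes. Sema5a had 26 tested peaks and 0 past 2-fold, at 0.881-fold (0.837 to 0.928). Sema4d, the ligand of plexin B1, was at 0.895-fold (0.855 to 0.938) with 1 peak at least 2-fold higher and 1 lower. Sema3c was at -0.15, Sema3d at 0.17 and Sema4c at 0.11, the last from 1 peak.

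The receptors of the semaphorins lay on the other side. The median over the 8 plexins and neuropilins was 0.10 against -0.15 for their ligands, and 6 of 8 were above the median of all genes. Relative to that median, plexins and neuropilins stood at 0.12 to 0.18 and semaphorins at -0.15 to -0.02 over the 13 other settings tried. The genes of the 2 families overlapped widely, and the difference between families was not tested. Nrp2 had 2416 normalized reads in control and 2611 in ablation, 1.08-fold (1.03 to 1.14), and Nrp1 had 272 and 318, 1.17-fold (1.01 to 1.35). All 4 peaks of Nrp1 were above 1. Plxna4 was highest, with 103 and 147.8 normalized reads, 1.43-fold (1.14 to 1.81), on 146 and 163 reads in all. Plxna1 was at 1.13-fold (1.03 to 1.23), with 1 of its 5 peaks shared with the predicted gene Gm40415. Plxnd1, the receptor of Sema3e, had 579 and 616 normalized reads, 1.06-fold (0.959 to 1.18).

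Both B-type plexins, receptors of class 4 semaphorins, were below 1. Plxnb2 was the lowest of the family, at 2060 normalized reads in control and 1831 in ablation, 0.889-fold (0.840 to 0.941). Plxnb1 stood at 2231 and 2105, 0.943-fold (0.894 to 0.996), an interval that holds the median of all genes. Plxna2, with 22 tested peaks, was at 0.967-fold (0.920 to 1.02). One of its peaks, beyond the gene end (chromosome 1, 194836438 to 194837341), had 25.4 and 56.2 normalized reads.

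Ephrins were the most even family. Of 6 genes, 4 lay between -0.07 and -0.06, and their counting intervals hold the median of all genes. Efnb1 had 1675 normalized reads in control and 1599.95 in ablation. Efnb2 had 2287 and 2180.4, Efna1, the main ligand of Epha2, had 1816 and 1743, and Efna3 had 947 and 901. Efna4 was lowest, with 798 and 645 normalized reads, 0.808-fold (0.735 to 0.888), and all 4 of its peaks were below 1. Efna5 was at 0.909-fold (0.869 to 0.951) over 24 tested peaks. An intragenic peak of Efna5 (chromosome 17, 62740981 to 62741487) had 26.1 normalized reads in control and 60.8 in ablation. Since these 4 ephrins sit on the median of all genes, the side on which Efna1, Efna3, Efnb1 and Efnb2 fall changed with the setting. Efna4 also passed to the upper side when only peaks overlapping the gene were kept, at -0.01.

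Among Eph receptors, Ephb2 and Ephb1 were higher in ablation and Ephb6 and Epha7 lower. The median over the 10 genes was -0.08, and 4 of 10 were above the median of all genes. Ephb2 had 1224 normalized reads in control and 1507 in ablation, 1.23-fold (1.15 to 1.32). Of its 14 tested peaks 10 were above 1 and 2 were at least 2-fold higher. The larger of those rests on 5 and 27 reads, on chromosome 4 at 136720080 to 136720401. The start-site peak of Ephb2 went from 72.0 to 122 normalized reads, 1.69-fold (1.30 to 2.21). Ephb1 had 215 and 257 normalized reads, 1.197-fold (1.01 to 1.41), with all 4 peaks above 1.

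Ephb6, a member without kinase activity, was lowest, at 1871 normalized reads in control and 1474 in ablation, 0.788-fold (0.740 to 0.838). Epha7 followed with 492 and 404, 0.821-fold (0.727 to 0.926), and none of its 3 peaks was above 1. Epha2, the best known Eph receptor of keratinocytes, had 2478 and 2285 normalized reads, 0.922-fold (0.876 to 0.971), an interval that holds the median of all genes. It had 1 distal peak at least 2-fold higher and 1 lower. Ephb3 had 3054 and 2835, and Ephb4, the receptor of ephrin B2, had 1540 and 1459. Epha4 was at 1.06-fold (0.986 to 1.13) and Epha1 at 0.947-fold (0.856 to 1.05). Epha3 had a single peak of 23 and 29 reads, and its ratio of 1.62 has an interval that includes 1 (0.905 to 2.93).

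Slit and netrin ligands had a median of -0.09 over 5 genes. Ntn1, the secreted netrin that Dcc and Unc5 receptors bind, had 93.9 normalized reads in control and 144 in ablation, 1.54-fold (1.21 to 1.949), and all 4 of its weak peaks were above 1. Ntn4, a netrin of basement membranes, was lowest, with 1387 and 1190.0, 0.858-fold (0.799 to 0.920). Its intragenic peak at 93679206 to 93679898 of chromosome 10 had 114 normalized reads in control against 51.7 in ablation, 0.455-fold (0.330 to 0.619). Slit1 had 620 and 785 normalized reads, 1.27-fold (1.15 to 1.39), with 8 of 10 peaks above 1. Slit2 had 1 peak, with 96.7 and 88.9.

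Slit3 had the most peaks of any member, 31 tested, and the most that were at least 2-fold higher, 5. Its summed signal did not follow them: 2732 normalized reads in control and 2559 in ablation, 0.936-fold (0.892 to 0.983), an interval that holds the median of all genes. The strongest peak, on chromosome 11 at 35317231 to 35318286, had 756 and 589, while the 5 changed peaks had between 7.76 and 19.8 in control and between 20.9 and 59.0 in ablation. The clearest of them, at 35587076 to 35587574, had 28 and 65 reads, 2.98-fold (1.89 to 4.83).

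Among their receptors Robo1 had 1003 normalized reads in control and 1128 in ablation, 1.13-fold (1.04 to 1.22). Its start-site peak went from 292 to 431 normalized reads, 1.47-fold (1.29 to 1.69). Robo2 was lowest, at 1367 and 1263, 0.924-fold (0.862 to 0.990), an interval that holds the median of all genes. Of its 15 peaks 2 passed 2-fold upward. One of these (chromosome 16, 74611170 to 74611851, within the gene) had 23.3 and 54.4 normalized reads. Unc5b had 2463 and 2300.1, 0.934-fold (0.887 to 0.983), with 1 peak at least 2-fold lower at 39.5 and 18.1. The interval of Unc5b also holds the median of all genes. For Unc5c there was a single peak of 20 and 24 reads, and the interval of its ratio (0.816 to 2.94) includes 1.

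The FLRT genes did not move as 1 family. Flrt2 had 183 normalized reads in control and 314 in ablation, 1.71-fold (1.45 to 2.02), second to Sema6d among all members. All 5 of its peaks were higher in ablation: 51.5 and 99.8 about 40 kb before the start, 43.0 and 78.0, 64.9 and 93.4, 10.6 and 22.7, and 13.4 and 19.95 within the gene. Flrt1 had 1701 and 1415, 0.832-fold (0.780 to 0.887), and Flrt3 had 320 and 262, 0.820-fold (0.705 to 0.952). Flrt1 lies within Macrod1, so all 10 of its tested peaks were assigned to both genes, and the only peak of Flrt3 was also assigned to Macrod2. The family median of -0.27 rests on these shared peaks: with peaks of 1 gene only, Flrt2 alone is left, at 0.77.

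**Figure D2:**
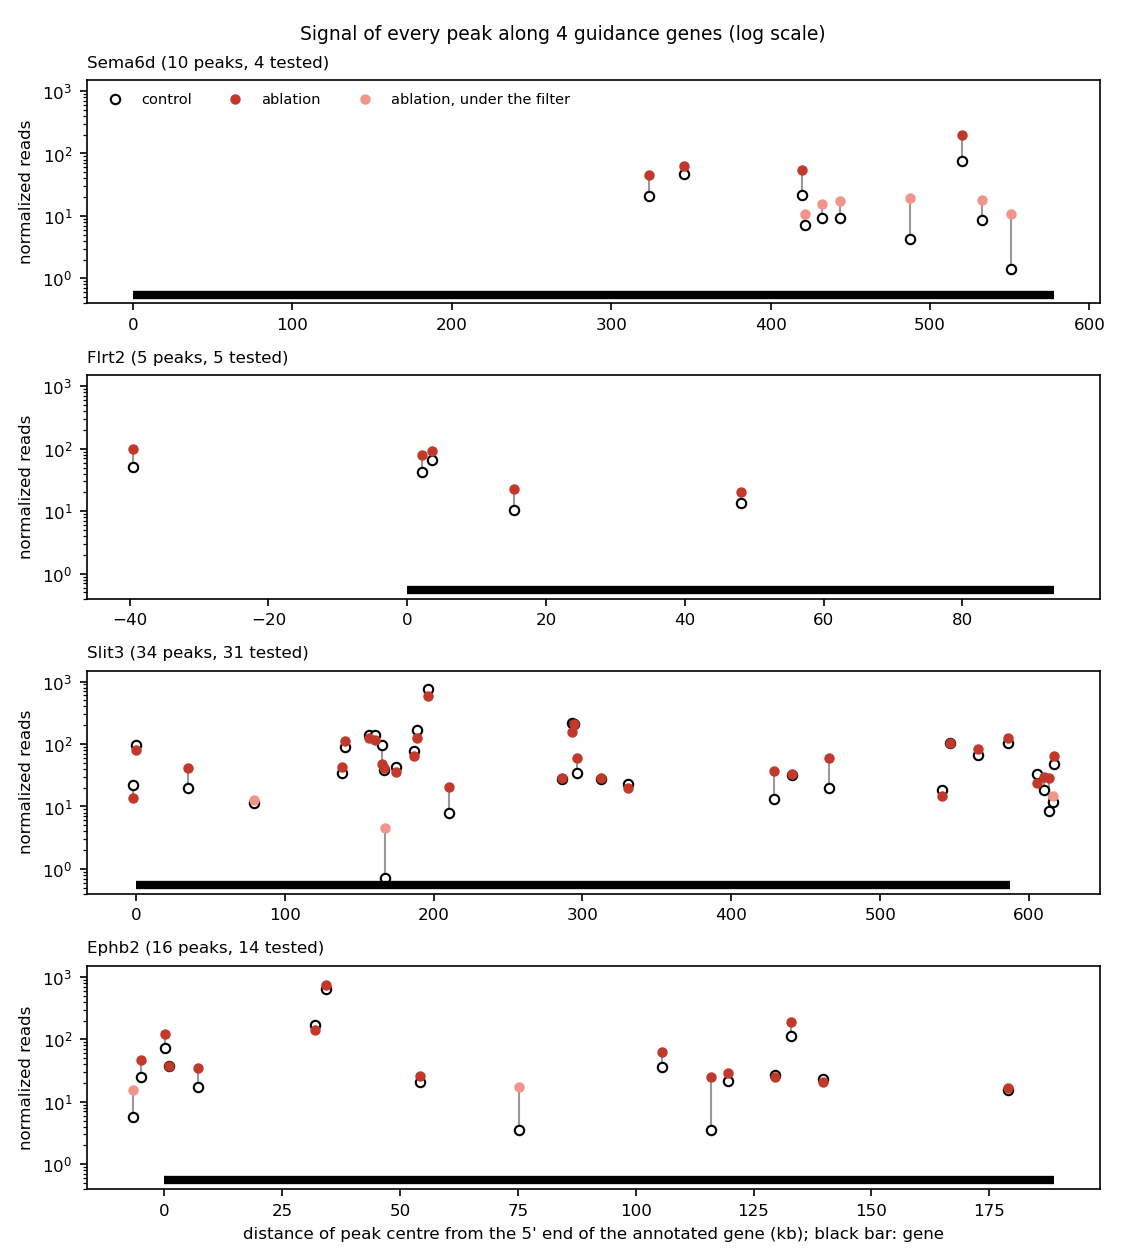
Every peak of Sema6d, Flrt2, Slit3 and Ephb2 is placed by the distance of its centre from the 5′ end of the gene (kb, black bar: gene), with normalized reads on a log axis in control (open) and ablation (red, pale where the peak failed the filter). All 10 peaks of Sema6d and all 5 of Flrt2 are higher in ablation, while the 6 strongest peaks of Slit3 are lower and 5 of its tested weak ones at least 2-fold higher.

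Ligands and receptors as a whole differed little. The median log2 ratio was -0.09 over 25 ligands and 0.02 over 22 receptors, a difference of -0.11 that ranged from -0.28 to -0.03 over the other settings. Ligand genes spanned -0.40 to 1.09 and receptor genes -0.34 to 0.66, so the ranges overlapped nearly throughout. Of the ligands 10 of 25 and of the receptors 12 of 22 lay above the median of all genes. Of the 243 tested ligand peaks 6.17% were at least 2-fold higher and 1.23% lower. For the 193 receptor peaks these shares were 4.15% and 1.55%. No test of this difference was possible, since genes and peaks of 2 libraries are not replicates.

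Over all members 24 of 452 peaks (5.31%) reached 2-fold higher signal in ablation, against 4.48% of all 76147 tested peaks. At least 2-fold lower were 6 (1.33%) against 1.88% of all. Both shares are near the background, and the median peak signal was also alike, 66.2 normalized reads for guidance peaks and 66.1 for all. The 30 changed peaks belonged to 18 genes, and 5 genes had more than 1 peak at least 2-fold higher. These were Slit3 (31 tested peaks), Sema6d (4), Sema3c (13), Robo2 (15) and Ephb2 (14). A gene with more tested peaks has more that can pass 2-fold. The share of all genes with any changed peak, or with more than 1 higher one, was not computed. Of the changed peaks 20 lay in gene bodies, 10 outside genes and 0 within 1 kb of a listed start. The tested guidance peaks numbered 292, 105 and 55 in these places. Of all tested peaks at starts only 1.36% were at least 2-fold higher and 0.26% lower, so 0 of 55 is near the background. These shares were 4.46% and 2.06% in gene bodies and 5.69% and 2.29% outside genes. The changed guidance peaks were mostly weak: the higher ones had between 5 and 109 reads in control. For 1 of the 24, the weak Ephb2 peak, the counting interval lay wholly above 2-fold. The deposited table comes in 3 runs of peaks. In run 1, 10 of 38 tested guidance peaks (26.3%) were at least 2-fold higher, against 31.2% of all its tested peaks. In run 2, 5 of 34 tested guidance peaks (14.7%) were at least 2-fold lower, against 16.1% of all its tested peaks.

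Signal went with direction. The 25 members with less summed signal (17.9 to 924 normalized reads, mean of both libraries) had a median log2 ratio of 0.17, with 16 above the median of all genes. The 25 with more had a median of -0.11, with 7 above. All genes within the same ranges had medians of -0.04 and -0.14. Over peaks, the median log2 ratio of guidance peaks was 0.11 among the weakest 25% of peaks and -0.15 among the strongest 25%. All tested peaks had 0.16 and -0.14 there. In signal quartiles 2 and 3, guidance peaks had 0.20 and -0.03, and all tested peaks had 0.10 and 0.01. With the ratio corrected for signal by a loess fit, 15 guidance peaks were at least 2-fold higher, against 3.11% of all tested peaks, and 11 lower, against 2.78%; of the 452 these counts are again near the background. Sema6d, Flrt2, Ntn1 and Sema3e are all among the members with less signal, and the part of signal in their ratios was not tested beyond this correction.

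**Figure D3:**
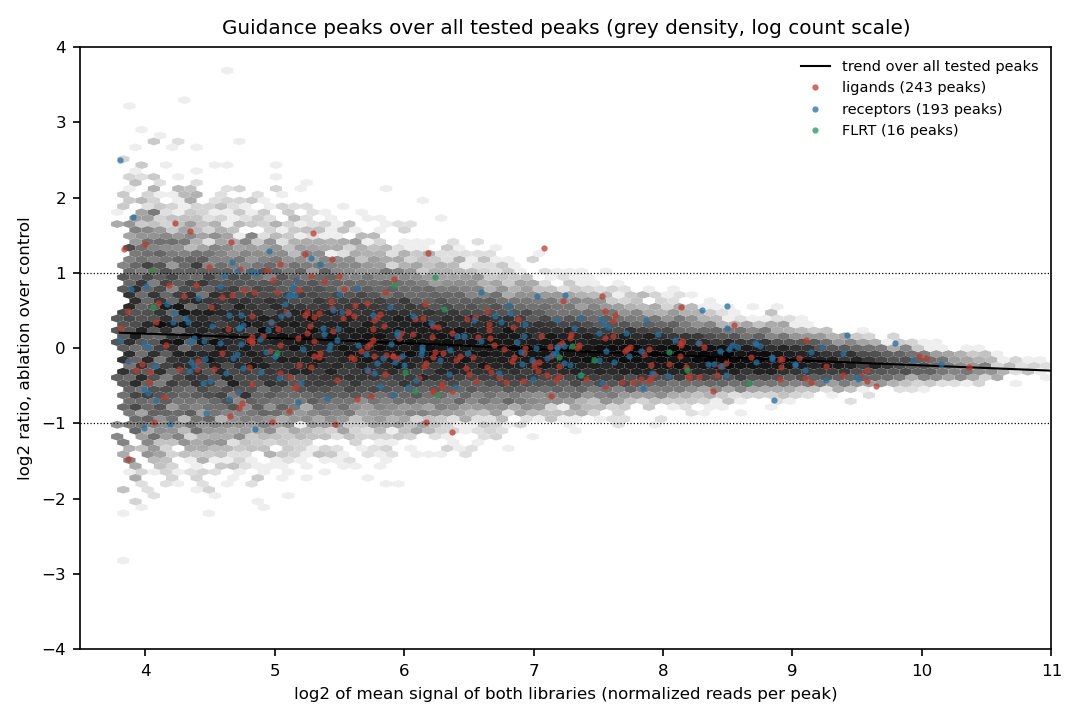
The horizontal axis is the log2 mean signal of a peak in normalized reads and the vertical axis its log2 ratio of ablation over control; grey shows all 76147 tested peaks, coloured points the 452 guidance peaks, the black line the trend over all peaks and dotted lines 2-fold. Guidance peaks fill the same cloud as the others, with 24 points above the upper dotted line and 6 below the lower one.

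Open chromatin at the starts of the members was common in these basal cells. Start sites were listed for 42 of the 51 members, and 38 of them (90.5%) had a tested peak within 1 kb of a listed start. Over all 17492 protein-coding genes with listed starts the share was 62.9%. The members were chosen with earlier results of these data known. A tested peak at any place was present for 50 of 51 members, against 16272 of 21900 genes. Of the 29 further ligands and receptors 25 had one. The higher share at starts therefore cannot be read as a trait of guidance genes. The 4 members without a tested peak at a listed start were Sema3a, Sema6d, Epha3 and Flrt2. Sema6d and Flrt2, the members furthest above the rest, thus had their signal away from listed starts. Starts were not listed for Sema3b, Sema3f, Sema6a, Plxna1, Plxna4, Slit1, Ntn1, Dcc and Flrt1. Per kb of peak, the control signal at the start was highest for Ephb3, with 1160.2 normalized reads per kb in control and 1039.8 in ablation. Plxnb2 followed with 1024 and 765, then Efnb2 with 769 and 712 and Unc5b with 677 and 646. At the low end stood Unc5c with 51.9 and 80.03, Sema3e with 54.0 and 75.6 and Nrp1 with 75.6 and 86.7. The order of neighbours has no spread between animals to be read against.

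**Figure D4:**
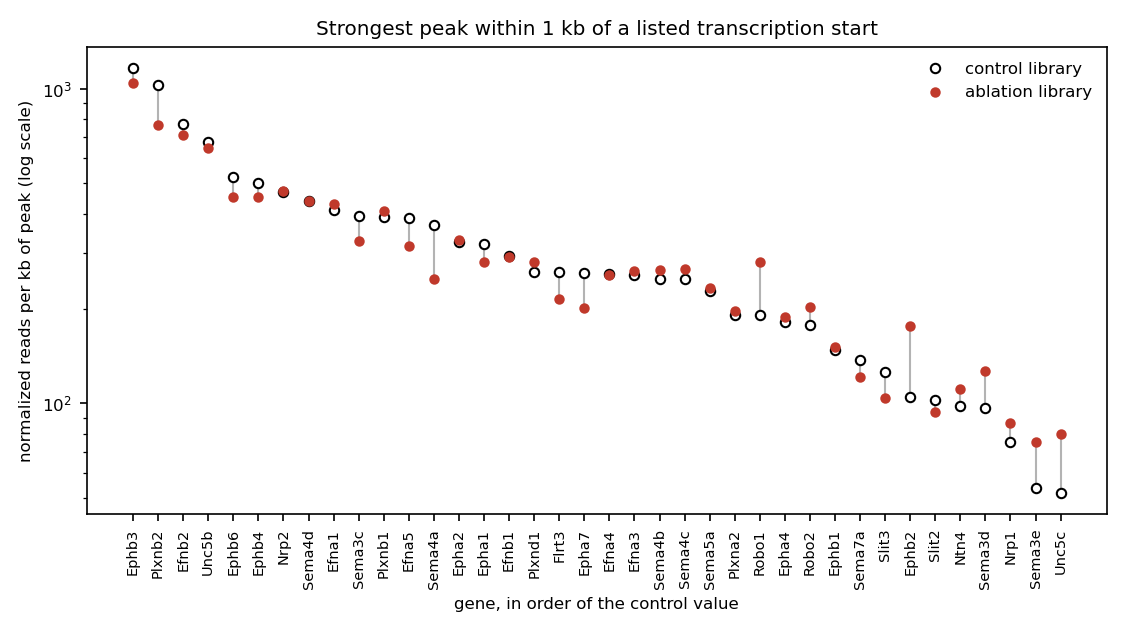
For each of 38 genes the strongest peak within 1 kb of a listed start is drawn as normalized reads per kb of peak (log axis) in control (open) and ablation (red), in order of the control value. Ephb3 and Plxnb2 lie highest, most pairs nearly coincide, and Ephb2, Robo1 and Sema4a show the widest gaps among well covered peaks.

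Among all tested peaks at starts, 1.36% were at least 2-fold higher and 0.26% lower. Their median log2 ratio was -0.08, and their share above 1 was not computed. None of these start-site peaks of members was 2-fold changed, and 21 of 38 were above 1. Their log2 ratios ran from -0.58 for Sema4a to 0.75 for Ephb2, with a median of 0.02. The next highest were Unc5c at 0.59, on few reads, Robo1 at 0.56 and Sema3e at 0.47, and the next lowest Plxnb2 at -0.42, Epha7 at -0.37 and Efna5 at -0.29. Among ligands the median was -0.00 over 18 genes and among receptors 0.03 over 19. Of the 10 members with most summed signal, 7 had start-site ratios between 0.954 and 1.067: Sema4b had 274 and 292 normalized reads there, Sema4d 318 and 320.2, Nrp2 378 and 381, Plxna2 366 and 375, Sema5a 279 and 286, Epha2 428 and 434, and Unc5b 687 and 655. The lower sums of Sema4b and Sema5a thus lay in their other peaks. Each gene had 2 tested peaks within 1 kb of a listed start, and only the stronger is given here. The other three had lower ratios: Ephb3 had 1030.3 and 923, Efna5 839 and 687 and Slit3 97.4 and 80.7.

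To show the sequence under the start-site peaks that differed most, the 250 bases before the start follow for the 2 highest and the 2 lowest of 32 members whose peak overlaps that window with 100 or more reads in both libraries. They were chosen after their values were seen. The sequences are from RefSeq (GRCm38.p6, the assembly behind mm10), given 5′ to 3′ on the strand of the gene: Ephb2 at chr4:136836013-136836262 (minus strand, log2 ratio 0.75), Robo1 at chr16:72662899-72663148 (plus, 0.56), Sema4a at chr3:88455762-88456011 (minus, -0.58) and Plxnb2 at chr15:89180789-89181038 (minus, -0.42). Capitals mark matches to GGGCGG on either strand, the letters bound by SP and KLF factors. TGANTCA (AP-1), GGAATG (TEAD) and CCGGAAG (ETS) were searched too and have no match in these 4 windows. Matches to CCCTC and CANNTG are not marked.
Ephb2: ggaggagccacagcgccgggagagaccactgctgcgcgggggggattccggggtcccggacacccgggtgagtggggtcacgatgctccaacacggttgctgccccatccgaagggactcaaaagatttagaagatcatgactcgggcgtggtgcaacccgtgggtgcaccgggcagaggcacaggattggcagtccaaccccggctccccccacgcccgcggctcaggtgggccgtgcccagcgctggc
Robo1: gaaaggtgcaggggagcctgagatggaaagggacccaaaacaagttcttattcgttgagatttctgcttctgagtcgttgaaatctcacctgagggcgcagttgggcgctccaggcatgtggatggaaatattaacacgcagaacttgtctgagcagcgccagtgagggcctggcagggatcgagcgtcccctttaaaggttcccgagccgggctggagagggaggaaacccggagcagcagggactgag
Sema4a: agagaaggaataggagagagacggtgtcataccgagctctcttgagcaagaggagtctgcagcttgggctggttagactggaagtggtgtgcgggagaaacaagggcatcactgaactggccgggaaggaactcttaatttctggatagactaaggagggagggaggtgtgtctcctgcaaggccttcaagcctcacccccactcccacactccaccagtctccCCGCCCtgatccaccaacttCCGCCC
Plxnb2: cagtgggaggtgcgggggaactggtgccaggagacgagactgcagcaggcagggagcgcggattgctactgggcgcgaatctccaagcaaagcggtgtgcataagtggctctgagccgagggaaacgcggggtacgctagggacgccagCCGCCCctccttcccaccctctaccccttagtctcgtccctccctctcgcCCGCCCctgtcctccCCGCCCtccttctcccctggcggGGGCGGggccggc

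The GGGCGG letters occur 2 times before the start of Sema4a and 4 times before that of Plxnb2, and 0 times before those of Ephb2 and Robo1. Over the 36 members whose peak overlaps its window, 27 (75%) held at least 1 match, against 42.6% of all 21263 listed windows of the same length. The guidance windows are also richer in G and C, with a median of 65.6% against 55.6%, and they were chosen for an overlapping peak while the others were not. TGANTCA was found in 0 of 36 against 6.13% of all windows, GGAATG in 5 (13.9%) against 11.7%, and CCGGAAG in 2 (5.56%) against 8.98%. CCCTC, a core of the CTCF motif, was in 28 (77.8%) against 64.4%, and CANNTG, the E-box, in 14 (38.9%) against 62.8%. All were searched on both strands, matches of different motifs may overlap, and a match is a run of letters and not a bound site.

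The rest of these systems was read from lists of other genes. Of 29 further ligands and receptors, 25 had a tested peak, their median was -0.00, and 18 were above the median of all genes. Their 118 peaks included 7 at least 2-fold higher and 3 lower, where 4.48% and 1.88% of all tested peaks were. Highest were Robo3 at 1.59-fold (1.26 to 2.02), a divergent Robo receptor, and Unc5a at 1.52-fold (1.08 to 2.14), and lowest Adgrl3, a latrophilin that binds FLRT proteins, at 0.856-fold (0.779 to 0.941) and Epha5 at 0.874-fold (0.6001 to 1.26). Of 33 intracellular effectors all had tested peaks, with a median of -0.04 and 18 above the median of all genes. Of their 374 peaks 10 were at least 2-fold higher and 10 lower, beside the same 4.48% and 1.88% of all tested peaks. Srgap1, a GTPase-activating protein that binds Robo receptors, had 658 and 1058 normalized reads, 1.61-fold (1.47 to 1.75), and the kinase Fyn 355 and 519. Lowest were Rasa1, a Ras GTPase-activating protein, at 0.689-fold (0.636 to 0.746), and Mical1, an enzyme that oxidizes actin downstream of plexins, at 0.734-fold (0.642 to 0.837).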

How the data were processed

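The authors deposited 1 table of a normalized signal per peak and library in build mm10, with no gene column. MACS2 2.1.0.20151222, HTSeq, Bowtie2 2.3.4.2, Trimmomatic and Picard are named, without roles, per the submitters' processing notes. The selection of peaks and the scaling of the signal: not given in the sources used here. Each value was a whole multiple of 1 step per library (0.706 in control, 0.907 in ablation, within 0.12 of a read), so whole reads were recovered. Exact repeats among 116411 rows were merged to 84594 peaks, and 3 mitochondrial peaks were left out. Columns not used numbered 0. Coordinates are as in the table.

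The log2 ratio used a pseudocount of 1 on 76147 peaks with a mean signal of at least 13.96 (the 10th percentile). A gene's value is the ratio of the summed signal of its tested peaks. With 1 library per group the criterion is 2-fold size and nothing was tested. Ratios carry 95% bounds (exact, Clopper-Pearson) from reads, for counting error only; copies made by PCR are not independent molecules. A count of 0 (3 reads) allows 2.12 normalized reads in control and 2.72 in ablation. Genes came from RefSeq GRCm38.p6, and starts from its promoter table (42 of 51 members). Members and lists were chosen with earlier results of these data known. Named in full were each family's highest and lowest genes, the 12 changed peaks with most reads (3 per gene at most), the start peaks of the 10 strongest members and the 2 highest and lowest of each list of other guidance genes; further genes were named after their values were seen. Steps were tested on simulated reads. Alternatives covered pseudocount, filter, scaling, table run, assignment, threshold and gene value. Software was Python 3.11.15 with matplotlib 3.10.9, statsmodels 0.14.6, scipy 1.17.1, pandas 2.3.3 and numpy 2.4.6.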

Additional observations from a re-analysis of the deposited data

Results flagged for a closer look

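Data outside the comparisons were higher in ablation in 2 places. Mitochondrial peaks held 31.2% of the ablation reads and 7.31% of the control reads. The 63 guidance peaks under the low-signal filter, in 25 genes, summed to 747 normalized reads in ablation and 603 in control, from 824 and 854 reads. Of them 13 (20.6%) were at least 2-fold higher, against 21.1% of all 8444 nuclear peaks under the filter, and 2 (3.17%) lower, against 12.9%. All peaks under the filter summed to 91426 normalized reads in ablation and 80679 in control. Of the 63 peaks 6 belong to Sema6d.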

How the results depend on the processing

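With 1 library per group the values describe 2 libraries, and weak genes (Epha3, Unc5c) rest on under 30 reads per library. Of 645 gene values under other settings, 516 stayed within the counting interval of the reported value and 129 moved. Sema6d ranged from 0.75 to 1.32, Flrt2 from 0.43 to 0.90, Sema4a from -0.74 to -0.27 and Ephb6 from -0.68 to -0.14. The low ends of Sema6d, Sema4a and Ephb6 came from division by the table total, where the median of all genes was -0.41. The numbers of peaks at least 2-fold higher and lower (24 and 6) became, with the shares of all peaks under the same setting in parentheses, 15 and 2 with a pseudocount of 5 (2.91% and 1.13%), 15 and 3 with the filter at the 25th percentile (2.81% and 1.18%), 8 and 19 with division by the table total (1.86% and 5.63%), 15 and 11 with the loess correction (3.11% and 2.78%), 14 and 1 in the largest run of the table (2.44% and 1.06%) and 66 and 27 at 1.5-fold (13.04% and 7.47%). Without the filter 37 were higher (6.14%), and centred on strong gene-end peaks 1 was lower (1.25%). With division by the table total the medians were -0.41 (all members), -0.43 (ligands), -0.33 (receptors), -0.49 (semaphorins), -0.24 (plexins and neuropilins), -0.41 (ephrins), -0.42 (Eph receptors), -0.43 (Slit and netrin ligands), -0.30 (Robo, Unc5 and Dcc receptors) and -0.61 (FLRT), where all genes were at -0.41; this scaling shifts all genes nearly alike. With the strongest peak per gene they were -0.14 (all members), -0.25 (ligands) and -0.32 (ephrins), where all genes were at -0.10, and the cause was not tested. Ephrins were at 0.057 centred on strong gene-end peaks, -0.030 after loess and 0.00036 as the median of peaks. With peaks of 1 gene only, a setting chosen after seeing the data, Flrt1 and Flrt3 had no value and the FLRT median became 0.77. No paired analysis was possible because each group has 1 library.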

Other observations

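Ligands were set beside 1 known receptor each, in pairs chosen after the values were seen and not tested. Sema3e at 0.62 stood beside Plxnd1 at 0.09, and Ntn1 at 0.61 beside Unc5b at -0.10. Sema3a at -0.28 stood beside Nrp1 at 0.22, Sema3f at -0.22 beside Nrp2 at 0.11, and Efnb1 at -0.07 beside Ephb2 at 0.30. Efna1 and Epha2 were at -0.06 and -0.12, Efnb2 and Ephb4 at -0.07 and -0.08, and Sema4d and Plxnb1 at -0.16 and -0.08. Sema3c and Nrp2 were at -0.15 and 0.11, Efna5 and Epha4 at -0.14 and 0.08, and Slit2 and Robo1 at -0.12 and 0.17. Sema4c and Plxnb2 were at 0.11 and -0.17, Flrt2 and Unc5c at 0.77 and 0.59, and Flrt3 and Unc5b at -0.29 and -0.10.

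Some genes were one-sided over their tested peaks. Of 45 members with 3 or more tested peaks, 6 had every tested peak above 1 (Sema6a, Sema6d, Nrp1, Ephb1, Ntn1 and Flrt2) and 3 had none above 1 (Sema3a, Efna4 and Epha7). With peaks under the filter included, Sema6a had 8 of 10 above 1. The share of all genes of the table that are one-sided was not computed.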
